A study of Mus musculus with 9 samples.

Results

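The 8 genes described here are the transcription factors Snai1, Snai2, Zeb1, Zeb2, Twist1, Twist2, Prrx1 and Prrx2, chosen by name as factors of the epithelial-mesenchymal transition (EMT) and of mesenchyme, among 53796 genes in the expression table. They were measured by RNA sequencing in CT26, a mouse colorectal carcinoma cell line, in 9 samples. In all 9 the Pd-l1 gene (Cd274), which encodes the ligand of the PD-1 receptor, had been knocked out, and a retrovirus was then added and selected with puromycin to give a polyclonal stable population. The retrovirus carried a control vector (KO), wild-type mouse Pd-l1 (WT) or mouse Pd-l1 with the K262Q substitution (K262Q), with 3 samples a group. The labels do not say that the 3 samples of a group were separate cultures, so the p-values cover only how far these samples differ, and that spread could be technical.

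EMT is the programme by which epithelial cells lose their junctions and take on a migratory, mesenchymal form, in development and in carcinoma. Snail and Zeb proteins are zinc-finger repressors that bind E-box sequences, among them those of the E-cadherin gene Cdh1, and recruit corepressors. Twist proteins are basic helix-loop-helix (bHLH) factors that pair with E proteins, and Id proteins, which lack a DNA-binding region, occupy those E proteins. Prrx1 and Prrx2 are paired-related homeobox factors of limb and facial mesenchyme.

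Values are FPKM, which divide the fragments of a gene by transcript length and by library size. Levels can thus be set beside each other across genes as far as the transcript lengths used hold. Group values are mean ± SD of 3 samples. Cd274 read at most 0.982 FPKM in KO, against 35.4 to 38 with the WT vector and 37.6 to 41.3 with K262Q, which separates KO from the other libraries as labelled. The WT and K262Q ranges overlap, so this level does not check those labels against each other. The low values of genes with 1 transcript implied 18.0 M to 19.2 M fragments (M, 1e6) a library. Among the KO libraries, replicate 2 was singled out by the values of the 8 factors themselves. For 6 of the 8 its value deviated from the mean of the other 2 in the direction of K262Q, for Twist2 only by 51.6 against 50.6 FPKM. The same count for the other KO libraries or over all genes is not given here. The comparisons of the 8 factors with KO are given with and without replicate 2. Calls gained without it follow in part from that choice.

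The cells carried little of the epithelial identity in the line's label. Of 12 colon epithelium markers, 9 stayed under 1 FPKM in every library, with Cdh1, Lgr5 and Car1 listed at 0 and Epcam at no more than 0.0546, while Krt18 (26.1 to 35.7 FPKM) and Krt20 (10.3 to 14.5) were measured. The summed level of the 12 was 47.3 to 50.2 FPKM in the KO libraries, 43.3 to 44.9 in those with WT and 40 to 41.6 in those with K262Q. On the mesenchymal side Vim, an intermediate filament gene, read 2870 to 3340 FPKM and Cdh2, N-cadherin, 21.8 to 24. Of the 25 mesenchymal genes listed, however, 9 stayed under 1 FPKM in every library, among them Cdh11, Mmp2, Tnc, Lox and Acta2, with Postn and Thy1 listed at 0. Of 7 fibroblast markers, Dcn, Lum and Thy1 were listed at 0 throughout and Col1a2 read 189 to 219 FPKM. For fibroblasts the sum ranged over 220.6 to 233 FPKM (KO), 214.7 to 235.3 (WT) and 200 to 202.9 (K262Q). The immune marker Ptprc stayed at or under 0.0232 FPKM and the 5 endothelial markers at or under 0.0602. Of 7 immune markers, Cd14 alone passed the minimum for testing, and the immune sum was 49.1 to 55.7, 48.1 to 51.4 and 56.3 to 58.1 FPKM in KO, WT and K262Q. Each sum rested mainly on few genes: Krt18 and Krt20 for colon epithelium, Col1a2 for fibroblasts and Cd14 for immune cells. A shift in a sum thus follows those genes and does not measure a share of cells. The part of these shifts in marker sums in the results below was not tested.

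All 8 factors were expressed, each with a mean above the 1 FPKM set as the minimum for testing, so none was left out. Over all 9 samples Prrx2 was the highest, at the 91.3 percentile of the 12212 genes tested. Twist1 stood at the 84.1 percentile, Twist2 at 83.9, Prrx1 at 78, Snai2 at 73.5, Zeb2 at 62, Zeb1 at 46.8 and Snai1 at 31. In WT cells Prrx2 led. The ranges of Twist1 and Twist2 overlapped, but within every WT library Twist1 lay above Twist2 (ratio of Twist2 to Twist1 0.84 to 0.952). Snai2 and Prrx1 also overlapped, and neither was above the other in every WT library, so these neighbours cannot be ordered. Below them Zeb2 lay above Zeb1 and Zeb1 above Snai1 in every WT library. In K262Q cells the order changed: every Twist2 value (66.9 to 67.8 FPKM) lay above every Twist1 value (58.8 to 62.1). There the range of Snai2 (18.3 to 21 FPKM) also overlapped that of Zeb2 (17.3 to 19.6), and the ranges of Zeb1 and Snai1 overlapped. In KO every Twist1 value lay above every Twist2 value, Snai2 with its wide spread overlapped Twist2, Prrx1, Zeb2 and Zeb1, and Zeb1 overlapped Zeb2.

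**Figure D1:**
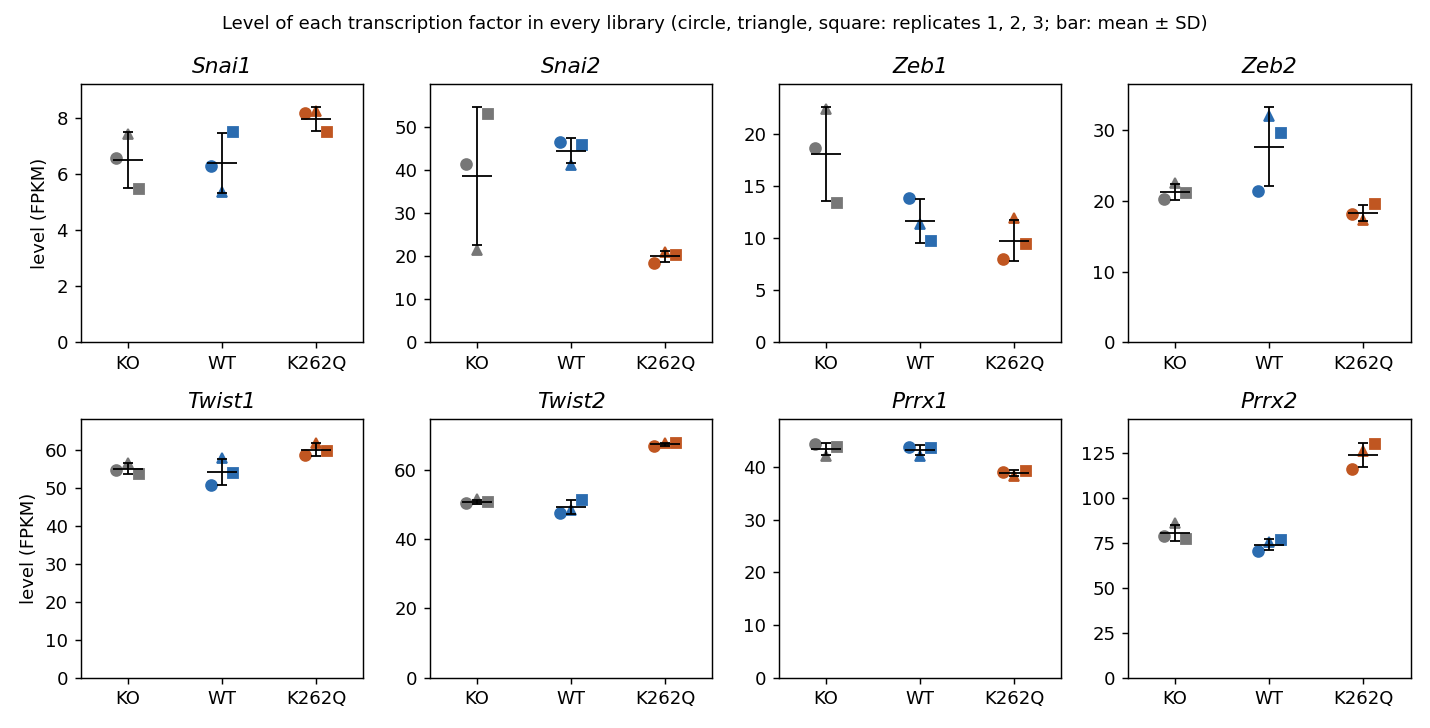
FPKM of each of the 8 factors (one panel a gene, axis from 0) in the 3 KO, 3 WT and 3 K262Q samples, with bars for mean ± SD. Prrx2 and Twist2 are higher in all 3 K262Q samples than in all others, and 1 KO sample of Snai2, at 21.3 FPKM, sits apart from the other KO samples.

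Between cells with K262Q Pd-l1 and cells with WT Pd-l1, Prrx2 and Twist2 rose and Snai2, Zeb2 and Prrx1 fell, while Snai1, Zeb1 and Twist1 did not pass the test. The factors thus did not move as a block, and the Twist and Prrx pairs shifted toward their second member. The test was limma on log2(FPKM + 1), fitted over all 12212 genes and all 9 samples. It used Benjamini-Hochberg adjustment over all genes and a threshold of 0.05. Differences below are on that scale with their SE, and folds from this fit are ratios of FPKM + 1. Of the 8 factors 5 passed (2 higher, 3 lower), where 9.38% of all tested genes did, 6.35% higher and 3.02% lower. The K262Q and WT values did not overlap for 6 of the 8 (3 higher, 3 lower), against 35.4% of all genes. The median difference of the 8 was 0, and that of all genes 0.03.

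Prrx2 (chromosome 2, 30834972 to 30881251, plus strand, GRCm38) read 70.6, 75.5 and 76.4 FPKM in WT and 116, 126 and 130 in K262Q. The values of the KO cells were 78.9, 85.9 and 77. All 3 K262Q libraries were thus far above the other 6. The means were 74.1 ± 3.13 in WT and 124 ± 6.92 in K262Q, a difference of 0.74 ± 0.06 or 1.67-fold (95% interval 1.51 to 1.84, adjusted p = 0.00522). Against KO (80.6 ± 4.68) it was 1.53-fold higher (0.62 ± 0.06, adjusted p = 0.0145). The call against WT held in all 9 fits that left out 1 library. The call against KO was lost in 3 of them, without KO replicate 1, K262Q replicate 2 or K262Q replicate 3 (adjusted p 0.0586 to 0.0717).

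Twist2 (chromosome 1, 91801461 to 91848028, plus strand) read 47.5, 48.6 and 51.5 FPKM in WT, 66.9, 67.8 and 67.7 in K262Q and 50.5, 51.6 and 50.7 in KO. The K262Q libraries lay close together (coefficient of variation 0.69%) and clear of all others. The rise over WT was 1.36-fold (0.45 ± 0.04, 95% interval 1.28 to 1.45, adjusted p = 0.00522) and over KO 1.32-fold (0.4 ± 0.04, adjusted p = 0.0145). The call against WT again held in all 9 fits, and that against KO was lost without KO replicate 1, K262Q replicate 2 or K262Q replicate 3 (adjusted p 0.0524 to 0.0527). The antisense gene Gm29100 shares exonic sequence with Twist2 and read 1.4 to 2.128 FPKM, and since strand use is not stated the reads of these genes cannot be told apart.

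The 250 bases before the RefSeq start of Prrx2 and Twist2, the pair that rose, are printed from the RefSeq table on GRCm38.p6, 5′ to 3′ along the gene, with those of Prrx1, which fell, and Snai1 for comparison. Capitals mark E-boxes (CANNTG) and the homeobox core TAATTA, the motifs searched on both strands together with the E-box forms CATATG and CAGGTG, which reads as CACCTG on the other strand. The windows are chr2:30845117-30845366 (plus strand) for Prrx2, chr1:91801211-91801460 (plus) for Twist2, chr1:163313651-163313900 (minus) for Prrx1 and chr2:167537945-167538194 (plus) for Snai1.
Prrx2: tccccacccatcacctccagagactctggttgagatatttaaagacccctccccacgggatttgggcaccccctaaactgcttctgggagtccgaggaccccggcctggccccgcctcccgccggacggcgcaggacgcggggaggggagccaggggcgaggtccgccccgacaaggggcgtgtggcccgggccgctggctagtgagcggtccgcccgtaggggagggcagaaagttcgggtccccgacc
Twist2: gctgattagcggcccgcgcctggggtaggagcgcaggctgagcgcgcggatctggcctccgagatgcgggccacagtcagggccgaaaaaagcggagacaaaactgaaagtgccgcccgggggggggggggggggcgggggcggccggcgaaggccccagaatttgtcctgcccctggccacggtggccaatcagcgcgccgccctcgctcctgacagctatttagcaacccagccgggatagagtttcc
Prrx1: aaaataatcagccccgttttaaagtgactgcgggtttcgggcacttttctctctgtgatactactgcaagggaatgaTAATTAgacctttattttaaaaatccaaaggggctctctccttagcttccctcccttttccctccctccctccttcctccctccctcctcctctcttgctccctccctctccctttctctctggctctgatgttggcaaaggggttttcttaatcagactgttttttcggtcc
Snai1: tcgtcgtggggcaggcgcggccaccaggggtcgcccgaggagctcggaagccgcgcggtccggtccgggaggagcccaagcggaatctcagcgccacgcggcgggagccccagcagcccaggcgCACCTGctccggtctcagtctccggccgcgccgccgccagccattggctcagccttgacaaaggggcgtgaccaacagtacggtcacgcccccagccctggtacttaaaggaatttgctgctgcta
The Prrx2 and Twist2 windows hold none of these motifs and are rich in G and C (70% and 68.8%), while the Prrx1 window has 47.6% G and C. Prrx1 holds 1 TAATTA, 173 bases before the start, and Snai1 holds 1 CACCTG, 126 bases before it. Twist1 and all 4 listed starts of Zeb2 held none of the motifs either. Of 32851 mouse windows of the same length 66.2% hold a CANNTG, 17.2% the CAGGTG form, 3.5% a CATATG and 4.8% a TAATTA. The shares overlap, since both E-box forms are also CANNTG. The absence says only that these letters are not in these windows. The Prrx2 window ends at 30845366, inside the gene span of 30834972 to 30881251, and the bases before that span were not searched. The Prrx1 window also begins inside its gene span, which ends at 163313710, and extends past it. The Zeb2 starts at 45113279, 45113253 and 45110277 lie inside the Zeb2 span, and the windows of 45113279 and 45113253 overlap.

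Prrx1 (chromosome 1, 163245119 to 163313710, minus strand), the paralog of Prrx2, moved slightly the other way. It read 43.9, 42.2 and 43.7 FPKM in WT, 39.1, 38.3 and 39.3 in K262Q and 44.3, 42.1 and 43.9 in KO. All K262Q values were below all others, by a small margin. The fall from WT was 1.11-fold (-0.15 ± 0.04, adjusted p = 0.0477), just inside the threshold. Leaving out KO replicate 1 or any single WT or K262Q library took it outside (adjusted p 0.0587 to 0.122), with the difference between -0.17 and -0.14. Against KO the difference was -0.16 ± 0.04 and did not pass (adjusted p = 0.077), but without KO replicate 2 it did (-0.18 ± 0.03, adjusted p = 0.0341).

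Twist1 (chromosome 12, 33957671 to 33959829, plus strand) read 50.9, 57.9 and 54 FPKM in WT, 58.8, 62.1 and 59.8 in K262Q and 54.9, 56.8 and 53.9 in KO. The K262Q values lay above all others, but close to them. The difference from WT was 0.15 ± 0.05 (95% interval 0.03 to 0.27, 1.11-fold, adjusted p = 0.119) and did not pass. It did not pass against KO either (0.12 ± 0.05, adjusted p = 0.228).

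Within each library the ratio of paralogs cancels the scaling of that library. Prrx2 was 1.86 ± 0.158 times Prrx1 in KO, 1.71 ± 0.0948 in WT and 3.19 ± 0.186 in K262Q. The ratio of Twist2 to Twist1 was 0.923 ± 0.0166, 0.909 ± 0.0599 and 1.12 ± 0.026 in the same order. The FPKM of Twist2 was thus above that of its paralog in every K262Q library, an order that rests on the transcript lengths used. Neither K262Q range overlapped WT or KO. Relative to WT the Prrx ratio was 1.86 times as high and the Twist ratio 1.23 times, and relative to KO they were 1.72 and 1.21 times as high (1.81 and 1.2 without KO replicate 2). In the exact two-sided permutation test of 3 against 3 each of these 4 comparisons gave p = 0.1, the smallest that this design allows (0.2 after adjustment over 12 comparisons).

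**Figure D2:**
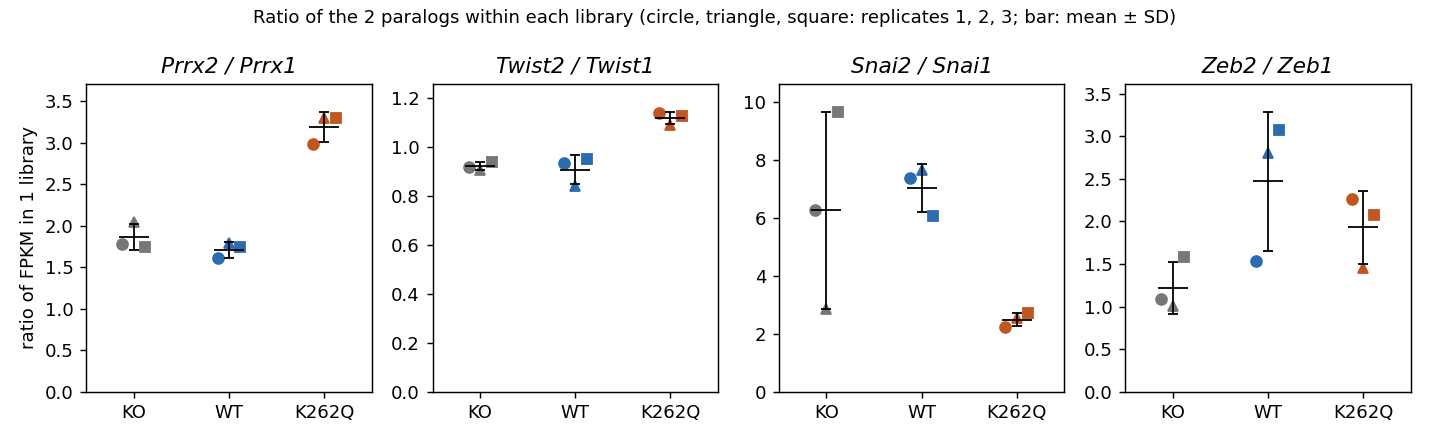
Ratio of the FPKM of each pair of paralogs within a library (axes from 0), for 3 libraries a group, with bars for mean ± SD. The Prrx and Twist ratios are highest in K262Q, the Snai2 to Snai1 ratio is lowest there, with KO replicate 2 the nearest other library at 2.85, and the Zeb ratios overlap between K262Q and WT.

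Snai2 (chromosome 16, 14705852 to 14709385, plus strand), also called Slug, had the largest difference of the 8. It read 46.5, 41.1 and 45.7 FPKM in WT and 18.3, 21 and 20.2 in K262Q, with no overlap. In KO it read 41.3, 21.3 and 52.9, so that KO replicate 2 lay beside the K262Q libraries and the other KO libraries beside WT. The means were 44.4 ± 2.93 in WT, 19.9 ± 1.36 in K262Q and 38.5 ± 16 in KO. The fall from WT was 2.18-fold (-1.12 ± 0.28, adjusted p = 0.0483). The KO spread enters the error shared by all 3 groups: without KO replicate 2 the adjusted p was 0.00551 at the same size. Without KO replicate 1 or any single WT or K262Q library the call was lost (adjusted p 0.0732 to 0.141), with the difference between -1.18 and -1.07. Against KO the difference of -0.83 ± 0.28 (1.78-fold) did not pass (adjusted p = 0.148), and without KO replicate 2 it was -1.20 ± 0.12 and passed (adjusted p = 0.00798).

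Snai1 (chromosome 2, 167538195 to 167542814, plus strand), Snail, was the lowest of the 8. It read 6.3, 5.38 and 7.53 FPKM in WT, 8.2, 8.26 and 7.5 in K262Q and 6.58, 7.46 and 5.48 in KO. The highest WT value lay just above the lowest K262Q value. The difference of 0.29 ± 0.13 from WT did not pass (95% interval -0.01 to 0.59, adjusted p = 0.194), nor did that of 0.27 ± 0.13 from KO (adjusted p = 0.279). Its lowest value rested on an implied 165 fragments, a counting SD of 7.79%, the least precise of the 8. The ratio of Snai2 to Snai1 was 7.03 ± 0.838 in WT, 2.49 ± 0.236 in K262Q and 6.26 ± 3.41 in KO. The WT and K262Q ranges did not overlap (0.36 times, exact permutation p = 0.1). K262Q lay at 0.45 times KO, or 0.32 times without KO replicate 2.

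Zeb2 (chromosome 2, 44983632 to 45117395, minus strand) read 21.4, 32 and 29.7 FPKM in WT, 18.1, 17.3 and 19.6 in K262Q and 20.3, 22.5 and 21.1 in KO. The K262Q libraries lay below all others, and WT replicate 1 lay with KO rather than with the other WT libraries. The fall from WT (27.7 ± 5.6 to 18.3 ± 1.17) was 1.47-fold (-0.55 ± 0.14, adjusted p = 0.047). It was the least stable of the 5 calls: it held in 1 of 9 fits, without WT replicate 1 (-0.72, adjusted p = 0.0307), and the other 8 gave 0.0554 to 0.14. Against KO the difference was -0.21 ± 0.14 (adjusted p = 0.42). The antisense gene Zeb2os shares exonic sequence with Zeb2 and read 1.166 to 2.705 FPKM, and Gm27761, a short RNA gene on the opposite strand that also shares exonic sequence, read 0 to 21.246. The mean of Gm27761 was 7.158 FPKM in KO, 13.35 in WT and 8.874 in K262Q, highest in WT as for Zeb2. The reads of these genes cannot be told apart without strand, and their part in the Zeb2 result was not tested.

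Zeb1 read 13.9, 11.4 and 9.7 FPKM in WT, 8, 12 and 9.42 in K262Q and 18.7, 22.4 and 13.4 in KO. The WT and K262Q values overlapped, and all K262Q values lay below all KO values. The difference from WT was -0.23 ± 0.21 (95% interval -0.73 to 0.26, adjusted p = 0.517). The difference from KO was larger, -0.82 ± 0.21 or 1.76-fold, and did not pass (adjusted p = 0.0899). Zeb1 varied by 24.9%, 18.2% and 20.5% of the mean in KO, WT and K262Q, with at least 863 implied fragments a library. The antisense transcript Gm10125 shares exonic sequence with it and read 0 to 1.575 FPKM. The ratio of Zeb2 to Zeb1 was 1.22 ± 0.309 in KO, 2.47 ± 0.821 in WT and 1.93 ± 0.429 in K262Q, with overlap between K262Q and WT (exact permutation p = 0.5). It was 1.58 times as high in K262Q as in KO, and 1.45 times without KO replicate 2.

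**Figure D3:**
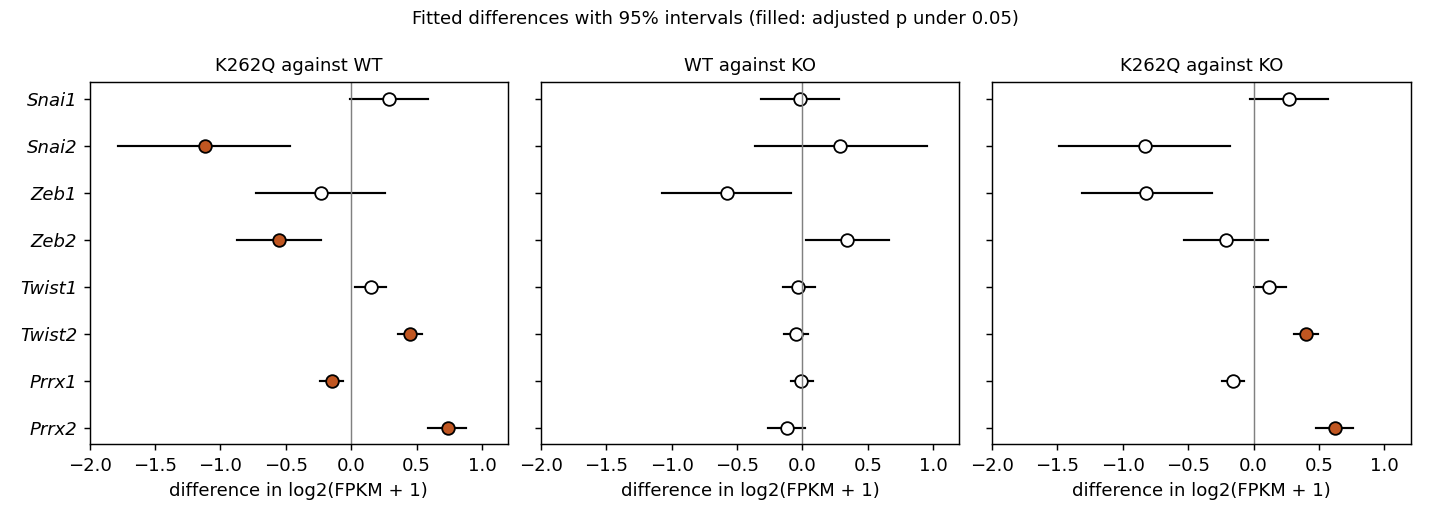
Fitted difference in log2(FPKM + 1) of each factor with its 95% interval, in 3 panels (from the left, K262Q less WT, then WT less KO, then K262Q less KO), filled where the adjusted p was under 0.05. Prrx2 and Twist2 are filled in both K262Q panels, and no factor is filled for WT against KO.

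Between knockout cells with WT Pd-l1 and those with control vector, none of the 8 factors passed the threshold (limma, 0 of 8). Of all genes 0.0819% passed, 0.0491% higher and 0.0328% lower. At an unadjusted p under 0.05 there were 2, and 686 of all 12212 genes. Zeb1 was 1.5-fold lower in WT (-0.58 ± 0.21, adjusted p = 0.854) and Zeb2 1.27-fold higher (0.34 ± 0.14, adjusted p = 0.877). For Prrx2 alone did the WT and KO libraries not overlap, with WT lower (-0.12 ± 0.06, adjusted p = 0.885), where 9.23% of all genes did not overlap. Intervals were narrow for the factors with tight replicates: Prrx1 lay between 0.94 and 1.06 times KO and Twist2 between 0.91 and 1.03 times. For Snai2 the interval ran from 0.78 to 1.93 times. Without KO replicate 2 again none of the 8 passed. The difference of Zeb1 was then -0.42 ± 0.22 and that of Zeb2 0.38 ± 0.16 (both adjusted p = 0.934), and that of Snai2 turned from 0.29 to -0.07. Those of the other 5 factors lay between -0.07 and 0.07.

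Between K262Q and the knockout with control vector, Prrx2 and Twist2 passed and the other 6 factors did not (2 higher, 0 lower, with 6 at an unadjusted p under 0.05, limma). Of all 12212 genes tested 1.26% passed, 0.721% higher and 0.54% lower, and 2681 had an unadjusted p under 0.05. The K262Q and KO libraries did not overlap for any of the 8 (4 higher, 4 lower), where 26.9% of all genes did not. Without KO replicate 2, 4 of the 8 passed, with Snai2 and Prrx1 added, where 9.15% of all genes did. That library was picked by the values of these factors, so the added calls are no separate support. Prrx2 then differed by 0.66 ± 0.06 (adjusted p = 0.00624) and Twist2 by 0.41 ± 0.04 (adjusted p = 0.0082). The factors that did not pass differed by 0.36 (Snai1), -0.66 (Zeb1), -0.17 (Zeb2) and 0.14 (Twist1), with adjusted p from 0.12 to 0.558. The comparisons with WT and with KO share the K262Q libraries, so their values are not independent of each other.

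**Figure D4:**
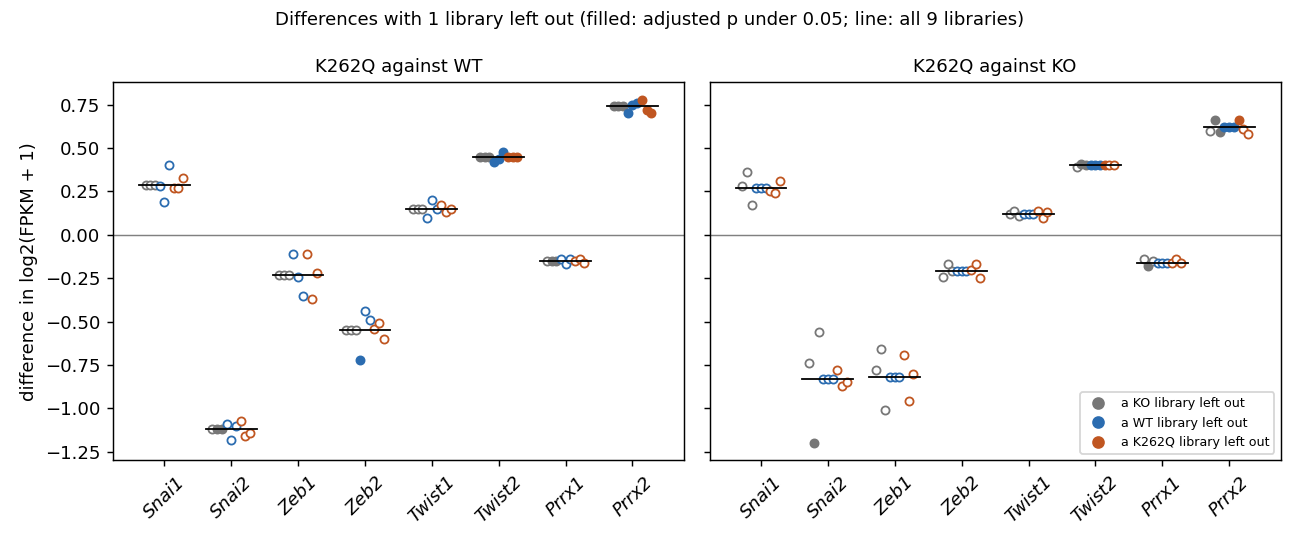
Difference in log2(FPKM + 1) of each factor with 1 library left out in turn, coloured by the group of that library and filled where the adjusted p was under 0.05, with a line at the value from all 9. Against WT, Prrx2 and Twist2 stay filled in all 9 fits, while Zeb2 is filled in 1 and Snai2 and Prrx1 in 2 each. Against KO, Snai2 is filled only without KO replicate 2.

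The genes that act with these factors were followed in 7 lists of 160 genes, 93 of them tested. Against WT 9 were higher and 4 lower in K262Q, where 6.35% and 3.02% of all tested genes were, so the count of lower genes lies near the share of all genes. Among 14 tested partner and other mesenchymal factors of 29 listed, 3 rose and 0 fell, all of them Id genes, the antagonists of bHLH factors. Id1 read 11.6, 11 and 13 FPKM in WT and 26.2, 32.2 and 34.7 in K262Q. Id2 read 14.7, 18.8 and 17.1 in WT and 33.6, 36.4 and 39 in K262Q, and Id3 read 1.93, 2.43 and 2.07 in WT and 9.82, 14.2 and 15.2 in K262Q. All 3 Id genes were thus higher in each K262Q library than in any WT library, and the calls of Id1 and Id3 held in all 9 fits with a library left out. Id2 lost its call without K262Q replicate 2 or 3 (adjusted p 0.0538 to 0.0592). Id1 was 2.48-fold, Id2 2.1-fold and Id3 4.42-fold higher (adjusted p = 0.00522, 0.0105 and 0.00691). Against KO all 3 were also called, the calls of Id2 and Id3 being lost in 7 and 2 of the 9 fits (highest adjusted p 0.11 and 0.0712). With only the 2 groups in the fit none of the 3 passed against KO (adjusted p 0.0935 to 0.101), and none passed with the replicate block (0.0682 to 0.0805). The same 2 settings ended the other 4 list calls against KO. Without KO replicate 2 all 7 list calls against KO held (adjusted p 0.00803 to 0.0192). For this and every other call of the lists that was lost with a library left out, K262Q replicates 2 and 3 were among the libraries whose omission ended it. The E proteins that pair with Twist did not pass: Tcf3 differed by 0.15 ± 0.06 (adjusted p = 0.145), Tcf12 by -0.14 ± 0.1 (0.432) and Tcf4 by -0.42 ± 0.11 (0.055). The median of the 14 was 0.

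Of 19 tested corepressors of 20 listed 2 rose and 0 fell against WT (median 0.14), close to the 9.38% of all genes called. Ctbp1, a dimeric corepressor bound by Zeb proteins, was 1.33-fold higher (109 to 128 FPKM in WT, 150 to 161 in K262Q, adjusted p = 0.0249), and Kdm1a, the lysine demethylase that Snail recruits, 1.15-fold (adjusted p = 0.0429). Ctbp1 lost its call in 5 of 9 fits with a library left out (highest adjusted p 0.0868) and Kdm1a in 8 (0.121). The median of all genes moved between 0.03 and -0.05 with the scaling, and Kdm1a was not called under the 3 other scalings (adjusted p 0.073 to 0.197). Of 22 tested genes for the stability of these proteins, of 25 listed, 4 rose and 0 fell (median 0.02). They were the ubiquitin ligase genes Stub1 (1.21-fold, adjusted p = 0.016), Siah1b (1.24-fold, 0.0289) and Fbxl14 (1.3-fold, 0.0297), and the kinase gene Atm (1.38-fold, 0.0396). Atm is outside the 3 named by rule and was named after its value was seen. Under the 3 other scalings it was not called either (adjusted p 0.0503 to 0.0742). Leaving out 1 library ended these calls in 4, 6, 6 and 7 of 9 fits (highest adjusted p 0.0627, 0.0961, 0.0961 and 0.111). Stub1 was also called against KO (1.19-fold, adjusted p = 0.043) and lost that call in 8 of 9 fits (highest 0.127). Fbxw7 was listed at 330 FPKM in K262Q replicate 1 and 4.27 to 5.38 in the other 8 libraries, and did not pass (adjusted p = 0.426).

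Of 14 tested TGF-beta inputs of 15 listed, 0 rose and 3 fell against WT (median -0.05), where 6.35% of all tested genes rose and 3.02% fell. The list holds repressors as well as ligands, receptors and SMADs, so the count gives no direction of signalling. Tgfb1, the receptors tested and Smad2, Smad3 and Smad4 were not called. Skil, which encodes the SMAD corepressor SnoN, read 10.8, 9.94 and 10.6 FPKM in WT and 6.49, 7.29 and 7.13 in K262Q. That was 1.44-fold lower (adjusted p = 0.016). The ligand Tgfb3 was 1.32-fold lower (adjusted p = 0.0171) and the repressor Tgif1 1.36-fold lower (adjusted p = 0.0413). These calls were lost in 3, 4 and 7 of 9 fits with a library left out (highest adjusted p 0.0576, 0.0661 and 0.122). Skil alone was also called against KO (1.42-fold lower, adjusted p = 0.0239), and lost that call in 7 of 9 fits (highest adjusted p 0.0936).

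For genes that these factors are known to repress or raise, and for epithelial factors, the shares of all genes against WT serve as background. Of all tested genes 9.38% passed, and 3402 of 12212 had an unadjusted p under 0.05. The lists hold too few tested genes to be told from those shares. Of 24 epithelial targets 4 were tested and none passed against WT (limma, 1 at an unadjusted p under 0.05). Krt18 was 1.28-fold lower than KO (adjusted p = 0.036), a call lost in 7 of 9 fits (highest 0.11). Of 22 epithelial factors and splicing regulators 5 were tested and none passed (2 at an unadjusted p under 0.05). Over the 9 libraries Klf4 read 26.3 to 56.7 FPKM, Klf5 14.2 to 26.5, Foxa1 12.4 to 15.7, Tfap2a 3.39 to 4.55 and Grhl1 0.798 to 1.57. Klf4 and Klf5 were lower in every K262Q library than in any WT or KO library. The nearest was KO replicate 2, at 33.5 FPKM for Klf4 and 16.4 for Klf5, against 31.2 and 16.3 in the highest K262Q library. Of all tested genes 35.4% did not overlap between K262Q and WT, and 26.9% between K262Q and KO. Against WT Klf4 was 1.47-fold and Klf5 1.41-fold lower, and neither passed (limma, adjusted p = 0.088 and 0.0753). Grhl3, Ovol2, Elf5, Ehf, Hnf4a and Esrp1 were listed at 0 in every library. Of 15 tested mesenchymal genes of 25 listed, Fn1 fell and none rose (median 0.02, 6 at an unadjusted p under 0.05). Fn1, fibronectin, read 107, 105 and 115 FPKM in WT and 76.6, 68.5 and 72.9 in K262Q. This was 1.49-fold lower (adjusted p = 0.016), a call lost in 4 of 9 fits (highest 0.0627). It was 1.44-fold lower than in KO (adjusted p = 0.0373), a call lost in 8 of 9 fits (highest 0.124). Vim and Cdh2 differed by 0.04 ± 0.06 and 0.04 ± 0.04 from WT. WT against KO gave 0 calls in all 7 lists (limma, against 0.0819% of all genes), with 7 of 93 genes at an unadjusted p under 0.05, near the 686 of 12212 over all genes.

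**Figure D5:**
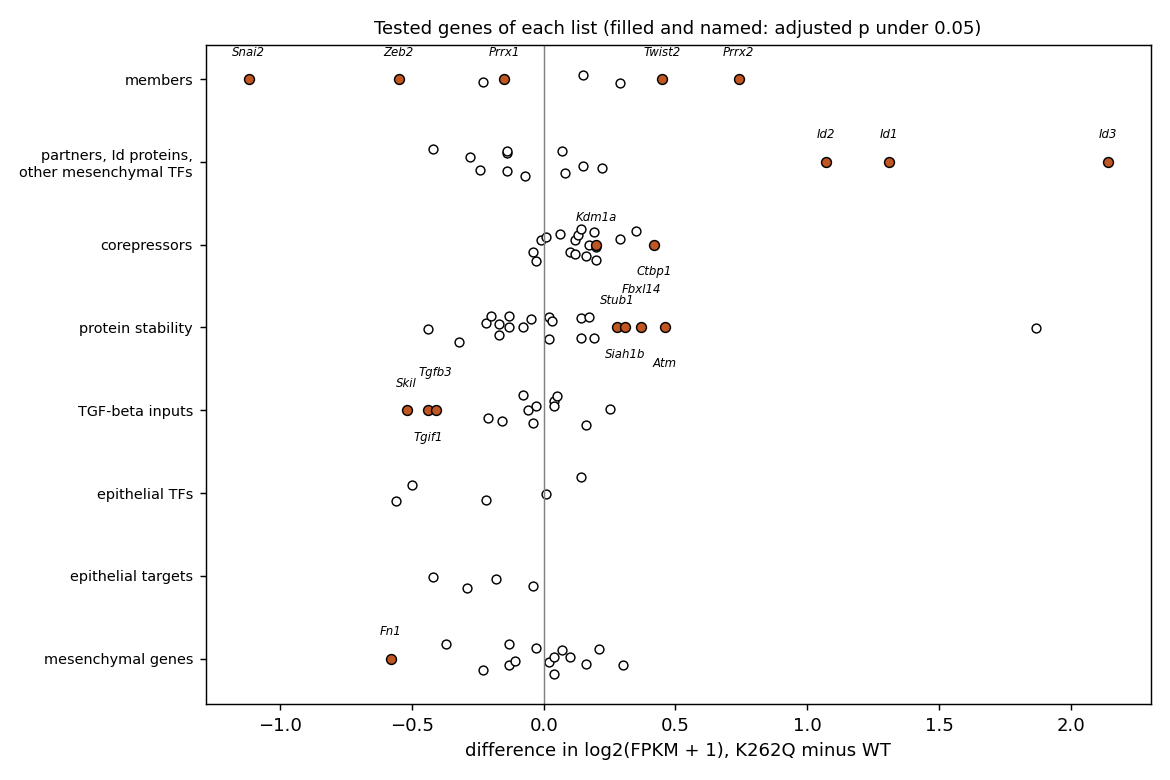
Difference in log2(FPKM + 1) between K262Q and WT for each tested gene of the 8 factors and 7 related lists, filled where the adjusted p was under 0.05. The filled Id genes reach the highest called values, and the TGF-beta inputs and mesenchymal genes are filled only below 0. The unfilled point at 1.87 is Fbxw7, which one library sets.

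By the correlation of log2(FPKM + 1) over the 9 samples, which share the 3 groups, Prrx2 was most like Id2 (Pearson r = 0.993) and Hars (0.991), and Twist2 most like Hars (0.989) and Prrx2 (0.988). Snai2 was most like Nfil3 (0.995) and Sesn2 (0.994), whose group means were 38 and 22.2 FPKM in WT and 17.7 and 13.4 in K262Q. In KO replicates 1, 2 and 3 Nfil3 read 35.3, 18.7 and 47.9 FPKM and Sesn2 20.4, 14 and 24.5. KO replicate 2 thus lay nearest K262Q for both, as for Snai2, and these r values rest in part on that library. Prrx1 was most like Tbce (0.986) and Aig1 (0.984), and Twist1 like Ptp4a3 (0.975) and Ndufa5 (0.966). For Snai1 the genes were Rfng (0.964) and Rbbp6 (0.958), for Zeb1 Zbtb33 (0.96) and Brd2 (0.951), and for Zeb2 Hsbp1 (0.934) and n-R5s200 (0.918). The last was listed at 0 in 7 libraries and read 15.1 FPKM in WT replicates 2 and 3, so its r rests on those 2. These are descriptions over 9 points chosen as the highest of all tested genes.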

How the data were processed

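Total RNA (Trizol) of 9 CT26 samples was sequenced. Per the submitters' processing notes the authors used STAR 2.5.4a, Cufflinks 2.2.1, Cuffdiff and mm10, and deposited 1 FPKM value per gene and sample, without read counts. Strand is not given in the sources used here. All 9 columns were used. Limma 3.58.1 in R 4.3.3 (trend, 3 groups, two-sided) was fitted on log2(FPKM + 1) for the 12212 genes whose mean reached 1 FPKM, with Benjamini-Hochberg adjustment and a threshold of 0.05. Adding the pseudocount of 1 understates the change of low genes.

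Depth was implied from 4767 genes with 1 transcript of 2000 to 6000 nt (GENCODE release 21). In each library 92.9% to 96.2% of low values lay within 0.15 of a whole number of fragments, where even spread would give 30%. It covers counting error only.

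The factors, lists and tests were chosen with earlier results of these data known. All 8 factors were named by rule, as were up to 3 called genes of each list with the smallest adjusted p, and the 2 genes most alike to each factor. On simulated data for K262Q against WT (12212 genes), the fit recovered 16.2%, 61.8% and 88.8% of genes changed 1.25-fold, 1.5-fold and 2-fold, with 11.8%, 6.7% and 4.6% false among calls. The simulation changed only a small part of the genes, none at the lowest levels, and left all others without a group difference. These rates therefore need not hold for the data themselves. Promoters came from RefSeq for 6 of the 8 factors. Tables and figures used Python 3.11.15, pandas 2.3.3 and matplotlib 3.10.9. Alternatives were another pseudocount (0.1), filter (none or a mean of 5 FPKM), scaling (upper quartile, TMM, equal totals outside models under 200 nt), only 2 groups, no trend, a replicate block, a 1.5-fold minimum and each library left out.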

Additional observations from a re-analysis of the deposited data

How the results depend on the processing

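The calls of Prrx2 and Twist2 against WT held under all 9 settings tried besides leaving libraries out and the 1.5-fold minimum, with adjusted p up to 0.0368. Snai2, Zeb2 and Prrx1 held under 5 of the 9. The 5 factors called against WT became 2 with no filter, 2 without the trend, 2 with the replicate block, 2 at a 1.5-fold minimum, and 2 to 4 with a library left out. At the 1.5-fold minimum the 2 were Prrx2 and Snai2, since Twist2 differed 1.36-fold. The 2 called against KO became 1 with only the 2 groups (Twist2), 0 with the replicate block, 1 at a 1.5-fold minimum (Prrx2) and 0 to 4 with a library left out. Genes called against WT, 1145, became 353 with no filter, 142 at a 1.5-fold minimum and 29 (without K262Q replicate 2) to 1597 (without KO replicate 2) with a library left out. The 10 genes called for WT against KO became 18 with no filter, 6 with the replicate block and 9 to 18 with a library left out. The 154 called for K262Q against KO became 55 with no filter, 234, 297 and 246 with upper-quartile, TMM and equal-total scaling, 10 with only the 2 groups, 37 without the trend, 5 with the replicate block, 40 at a 1.5-fold minimum and 13 (without K262Q replicate 3) to 1117 (without KO replicate 2) with a library left out. The share of higher calls against WT was 67.8%, and 43.4%, 57.1% and 35.6% under those scalings. Against KO it was 57.1%, and 43.6%, 59.3% and 44.7%. The cause of these shifts was not tested. For WT against KO small differences changed sign: Snai1 to 0.00 and 0.01, Twist1 to 0.00 and 0.02 and Prrx1 to 0.02 and 0.04 with upper-quartile and equal-total scaling, and Prrx1 to 0.02 with TMM. With a library left out they ran from -0.13 to 0.08 for Snai1, -0.07 to 0.56 for Snai2, -0.07 to 0.02 for Twist1 and -0.03 to 0.01 for Prrx1. Replicate numbers showed no pairing: deviations correlated by -0.036 to 0.078 for equal numbers and -0.074 to 0.051 for others.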
